A study of Mus musculus with 8 samples.

Results

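IRF5 is a transcription factor of the interferon regulatory factor family that acts downstream of endosomal Toll-like receptors, and CpG DNA is the ligand of the endosomal receptor TLR9. The regions described here carried an anti-IRF5 peak in 1 CpG library and in both control libraries, and lacked one in the other CpG library. They were chosen by these peak calls alone. Peaks of the 4 libraries were merged into 1 region wherever they overlapped by at least 1 bp, and a region was kept when CpG replicate 2, control replicate 1 and control replicate 2 each had a peak in it and CpG replicate 1 had none. Of 55621 merged regions in all, 6769 met this rule. They are set beside the 5599 regions called in all 4 libraries.

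The study profiled IRF5 by CUT&Tag, in which an antibody directs a protein A-Tn5 fusion to cut and tag the DNA around the bound protein, in macrophages derived from the bone marrow of wild-type mice. The CpG group was stimulated with CpG, at a dose and for a time that the labels do not give, and the control group was given PBS. Each group had 2 anti-IRF5 libraries, and the 4 IgG libraries of the series were not analysed here. All cells had been frozen and were thawed before the assay, and whether the 2 libraries of a group came from separate animals or cultures is not stated in the labels. Peaks bear on DNA only, so the macrophage label could not be checked against expression of marker genes.

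IRF proteins bind repeats of the sequence GAAA, and in macrophages they often sit on DNA beside PU.1, the factor encoded by Spi1, and beside NF-kB or AP-1 at genes that respond to microbial products. IRF5 is known for driving inflammatory cytokine genes after Toll-like receptor stimulation. A peak caller reports a site only where the tags exceed the local background by enough to pass a threshold. A region without a peak is therefore a region where no call was made, which is not the same as a region without the protein.

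CpG replicate 1 had the shortest list, with 13553 peaks of 202 bp at the median. CpG replicate 2 had 25851 peaks of 317 bp, control replicate 1 had 29226 of 291 bp, and control replicate 2 had 37315 of 341 bp. The lists give no read totals, so the depth of each library is unknown, and fold enrichments were ranked within a list and not compared between lists. The background library followed the condition, since both CpG libraries were called against IgG of the CpG group and both control libraries against IgG of the control group. Treatment and background library thus went together, and their effects on a call cannot be told apart here. CpG replicate 2, which had a peak in every region kept by the rule, had the same treatment and IgG of the same group. Why CpG replicate 1 lacked a peak, and the part of list length in this, was not tested.

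Of the regions with a peak in the 3 other libraries, 54.7% had none in CpG replicate 1. The same share was 7.62% for CpG replicate 2 (462 regions missing only there), 16.1% for control replicate 1 (1076 regions) and 3.8% for control replicate 2 (221 regions). CpG replicate 1 was thus the library in which a call shared by the 3 others was most often absent. These shares are the background against which each count of missing regions below is read, and since the calls chose the regions, every comparison is given as a description with no test.

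Promoters from the set are printed first, because 26.1% of the regions had their strongest peak in a promoter and the sequence there can be read beside the peak values. The first 3 belong to the strongest promoter regions that matched a RefSeq promoter. Irf1, Irf5 and Fcer1g were added after their values were seen, because 2 encode interferon regulatory factors and the third encodes a receptor adaptor of macrophages. Each sequence is RefSeq's 300-base window from 250 bases before to 50 bases after the annotated start in GRCm38.p6, 5′ to 3′ on the gene's strand. Capitals mark matches, on either strand, to any of 8 short motifs spelled out further below. The windows lie at chr3:109340433-109340732 on the plus strand for Vav3 (the first of its 3 entries), chr13:23530879-23531178 on the minus strand for Gm11335, chr17:56290462-56290761 on the minus strand for Plin3, chr11:53769764-53770063 on the plus strand for Irf1 (the first of its 2 entries), chr6:29526375-29526674 on the plus strand for Irf5 and chr1:171234300-171234599 on the minus strand for Fcer1g.
Vav3: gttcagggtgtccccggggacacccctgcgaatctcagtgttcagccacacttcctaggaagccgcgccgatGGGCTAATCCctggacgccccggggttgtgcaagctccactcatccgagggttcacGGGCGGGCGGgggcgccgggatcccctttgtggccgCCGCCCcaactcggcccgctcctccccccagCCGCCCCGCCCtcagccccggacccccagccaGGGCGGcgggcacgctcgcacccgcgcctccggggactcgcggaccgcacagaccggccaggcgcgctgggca
Gm11335: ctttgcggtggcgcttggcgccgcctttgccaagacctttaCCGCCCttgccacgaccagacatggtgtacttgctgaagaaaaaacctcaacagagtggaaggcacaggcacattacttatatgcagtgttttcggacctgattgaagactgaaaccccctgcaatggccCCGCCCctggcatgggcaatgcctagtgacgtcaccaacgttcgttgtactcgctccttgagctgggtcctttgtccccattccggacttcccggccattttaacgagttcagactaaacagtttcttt
Plin3: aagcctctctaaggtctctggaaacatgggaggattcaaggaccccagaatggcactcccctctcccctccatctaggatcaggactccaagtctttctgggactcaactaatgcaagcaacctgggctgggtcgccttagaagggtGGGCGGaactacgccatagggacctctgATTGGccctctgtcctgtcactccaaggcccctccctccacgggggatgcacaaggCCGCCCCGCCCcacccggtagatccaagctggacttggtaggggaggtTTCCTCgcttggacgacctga
Irf1: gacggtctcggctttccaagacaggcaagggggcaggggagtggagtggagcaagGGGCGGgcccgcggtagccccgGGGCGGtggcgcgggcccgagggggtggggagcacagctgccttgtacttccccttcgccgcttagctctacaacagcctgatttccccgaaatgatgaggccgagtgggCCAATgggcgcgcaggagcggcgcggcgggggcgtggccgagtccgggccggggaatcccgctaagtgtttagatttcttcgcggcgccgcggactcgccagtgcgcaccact
Irf5: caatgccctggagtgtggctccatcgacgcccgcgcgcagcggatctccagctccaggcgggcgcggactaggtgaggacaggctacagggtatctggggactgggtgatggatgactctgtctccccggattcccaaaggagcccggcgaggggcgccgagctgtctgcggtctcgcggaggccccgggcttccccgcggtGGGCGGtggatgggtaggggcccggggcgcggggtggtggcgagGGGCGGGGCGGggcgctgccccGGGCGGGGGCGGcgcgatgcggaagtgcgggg
Fcer1g: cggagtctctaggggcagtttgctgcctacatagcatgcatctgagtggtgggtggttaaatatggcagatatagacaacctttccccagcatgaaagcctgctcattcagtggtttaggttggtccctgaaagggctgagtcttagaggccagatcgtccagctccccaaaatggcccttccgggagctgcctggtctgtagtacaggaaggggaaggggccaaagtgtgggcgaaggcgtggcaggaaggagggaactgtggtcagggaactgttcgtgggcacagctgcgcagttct

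The Irf5 window was 74.7% G and C and held 5 GC boxes, and the Vav3 window was 74.3% G and C with 6 GC boxes and 1 NF-kB motif. The Fcer1g window had 55.7% G and C and no match to any of the 8 motifs. None of the 6 windows held the paired GAAA of the interferon-stimulated response element. The files' coordinates follow another genome build than GRCm38.p6, one that the labels and headers do not name, so no peak was placed within these letters. The start of Irf5 in the files, chr6:29526623, does lie inside its printed window. Of all matched gene starts, only 3.10% lay within 1 kb of the files' position. In the files' own coordinates the centre of the Vav3 peak was at -323 bp from the gene's start in CpG replicate 2 and that of the Fcer1g peak at -78 bp, where negative values are upstream.

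The missing regions were weaker and shorter than those called in all 4 libraries, in each of the 3 libraries that called both. By fold enrichment, the authors' ratio of the pileup at a peak's summit to the local background, the strongest peak of a missing region had a median of 6.04 in CpG replicate 2, 6.14 in control replicate 1 and 7.54 in control replicate 2. The medians for regions called in all 4 were 9.05 in CpG replicate 2, 7.11 in control replicate 1 and 9.75 in control replicate 2. The missing regions were thus lower in each library, and least so in control replicate 1. On ranks within each list, a missing region stood at the 48.6th percentile in CpG replicate 2, the 59.8th in control replicate 1 and the 69.7th in control replicate 2. A region called in all 4 stood at the 81.3rd, 74.8th and 83.4th percentile in the same order of libraries. The difference of the medians, missing minus called in all 4, was -32.7 percentile points in CpG replicate 2, -15.0 in control replicate 1 and -13.7 in control replicate 2 (mean -20.5 ± 10.6, SD over the 3 libraries). The gap was widest in the other CpG library. Because fold enrichment is part of what makes a call, this gap is a description of what the rule selected.

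**Figure D1:**
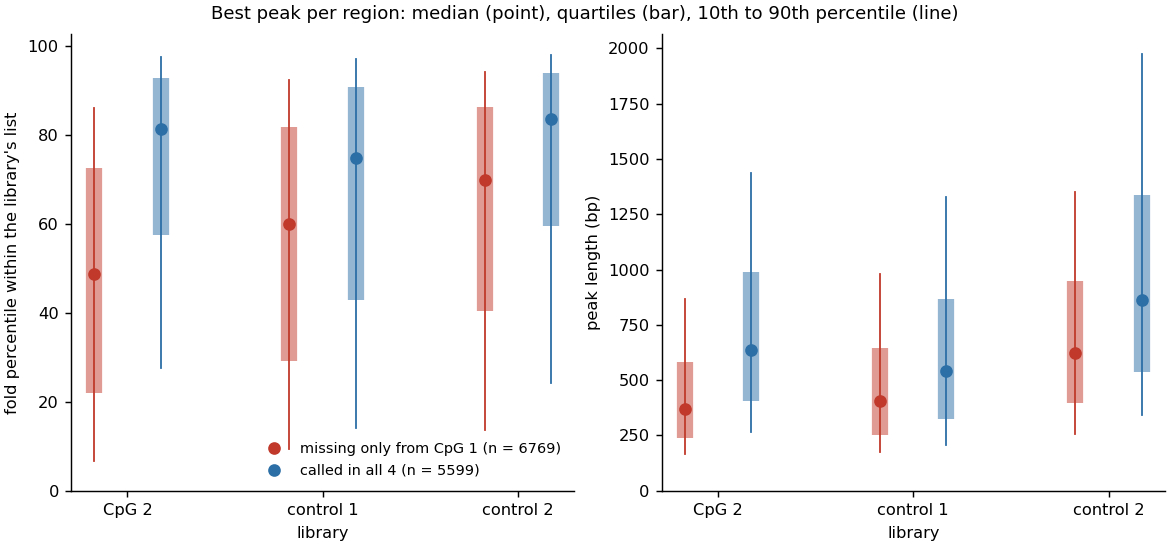
Strength and length of the strongest peak of each region, for regions missing only from CpG replicate 1 (red) and regions called in all 4 (blue), by library; points are medians, thick bars quartiles and lines the 10th to 90th percentiles over regions. Red medians lie below blue medians in each library for both measures, with the widest gap in fold percentile in CpG replicate 2 (48.6 against 81.3).

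The spread within the set was wide. Its quartiles were the 21.9th and the 72.6th percentile in CpG replicate 2, and 359 of its regions (5.30%) reached the median of the regions called in all 4 in each of the 3 libraries, against 1407 (25.1%) of the regions called in all 4. A further 3291 missing regions (48.6%) were below that median in all 3, and the others were above it in some libraries and below it in others. The strongest regions were few, as 99 missing regions against 665 regions called in all 4 stayed at or above the 90th percentile in every one of the 3 libraries. For 22.4% of missing regions the highest of the 3 percentiles was that of CpG replicate 2, against 36.8% of the regions called in all 4. Control replicate 2 gave the highest rank most often in both sets, at 44.7% of missing regions and 37.5% of the others.

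The ranks of the 3 libraries followed each other less closely over the missing regions. Spearman's rho of fold across regions was 0.165 between CpG replicate 2 and control replicate 1 for missing regions and 0.325 for regions called in all 4. Between CpG replicate 2 and control replicate 2 it was 0.331 for missing regions and 0.527 for regions called in all 4. Between the controls it was 0.460 for missing regions and 0.577 for regions called in all 4. These are descriptions over 6769 and 5599 regions, which share their libraries and are not replicates, and the missing set covers a narrower range of fold.

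Missing regions had a median length of 772 bp after merging (quartiles 545 and 1125 bp, shortest 147, longest 15031), against 1023 bp for regions called in all 4 (quartiles 704 and 1531 bp). Regions called in all 4 join peaks of 1 more library, and a longer region is more easily overlapped by a peak. The difference in merged length is therefore in part set by the rule. Short length was not particular to this set. Regions missing only from CpG replicate 2, control replicate 1 or control replicate 2 had medians of 504, 550 and 449 bp. The strongest peaks of regions missing from CpG replicate 1 had median lengths of 371 bp in CpG replicate 2, 405 bp in control replicate 1 and 621 bp in control replicate 2. Those of regions called in all 4 had medians of 637 bp in CpG replicate 2, 540 bp in control replicate 1 and 861 bp in control replicate 2. The gap was widest in CpG replicate 2 and narrowest in control replicate 1. Pileup at the summit, the number of overlapping tags, had a median of 21 in CpG replicate 2, 20 in control replicate 1 and 27 in control replicate 2 for missing regions. It was 29, 26 and 38 for the others in the same order of libraries. Missing regions thus had the lower summit in each of the 3 libraries.

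The share of regions missing from CpG replicate 1 was lower among stronger regions. Regions were grouped by their lowest fold percentile over the 3 libraries. Below the 10th percentile, 1739 of 2479 regions (70.1%) lacked a CpG replicate 1 peak, and at or above the 90th percentile 99 of 764 (13.0%) did. Between these ends the share was 64.3% for regions between the 20th and 30th percentile, 64.8% between the 30th and 40th, 60.2% between the 40th and 50th and 37.8% between the 70th and 80th, so the weaker groups did not fall at every step. Length followed the same course, since 73.3% of regions under 500 bp were missing and 28.6% of those of 2 kb or more. With each region given the rate of its strength group, 63.2% of those under 500 bp would have been missing.

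**Figure D2:**
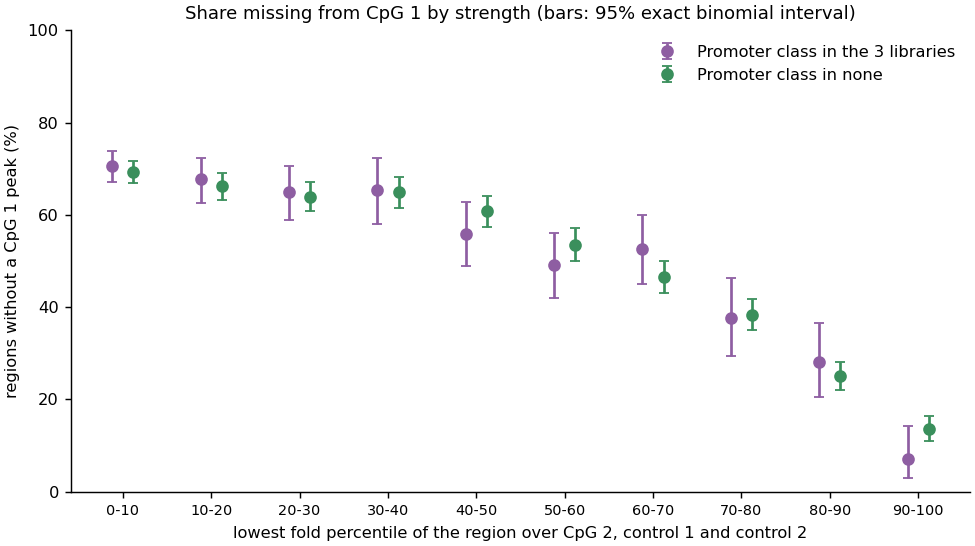
Share of regions with a peak in CpG replicate 2 and both controls that had none in CpG replicate 1, by the region's lowest fold percentile over those 3 libraries, for regions in the Promoter class in the 3 libraries (purple) and in none (green), with 95% exact binomial intervals that cover counting error only. Both series end far below their start, with 70.5% and 69.3% missing in the weakest group and 7.14% and 13.6% in the strongest, though the promoter series is at 49.0% between the 50th and 60th percentile and at 52.5% in the next group.

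Missing regions lay closer to genes. Over the 3 libraries, 26.1% ± 0.156 of missing regions had a Promoter-class peak as their strongest, against 22.1% ± 0.468 of regions called in all 4 (SD over the 3 libraries). The difference was 3.95 percentage points in CpG replicate 2, 4.39 in control replicate 1 and 3.77 in control replicate 2, so all 3 libraries, which read the same regions, gave the same direction. Its size depended on which libraries had to call a region, at 1.62 points without control replicate 1 and 2.22 without CpG replicate 2, and it was 6.58 with each list at the length of the shortest. Exon peaks made up 14.9% of missing regions and 10.7% of the others, intron peaks 48.3% and 45.2%, and peaks in 5′ untranslated regions 7.28% and 5.21%. Intergenic peaks went the other way, at 22.9% of missing regions and 30.4% of the others, a difference of -7.48 ± 0.0140 percentage points. All 6 classes together therefore describe a set that is less intergenic and more genic than the regions called in all 4, with 3′ untranslated regions rare in both (1.36% and 1.04%).

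**Figure D3:**
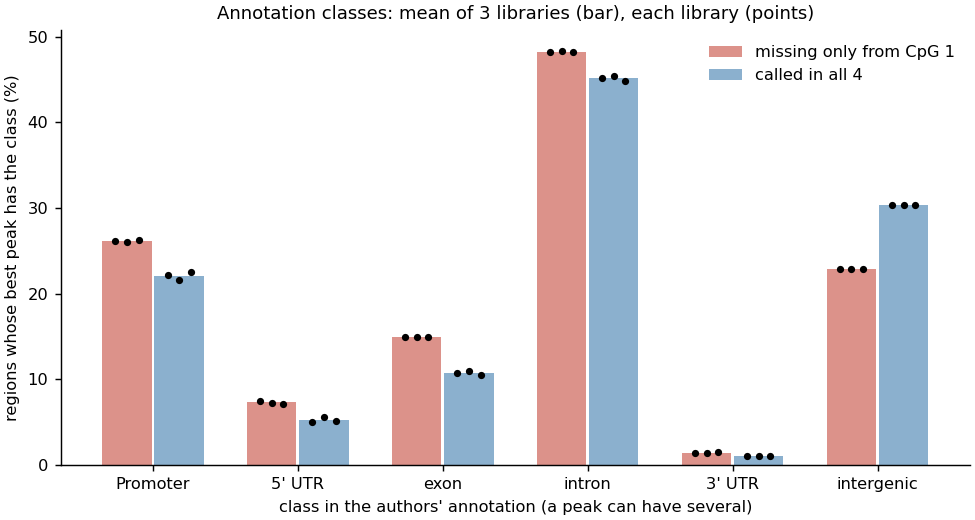
Share of regions whose strongest peak has each class of the authors' annotation, for regions missing only from CpG replicate 1 (red) and called in all 4 (blue); bars are means over CpG replicate 2, control replicate 1 and control replicate 2, points the single libraries. The red bar is lower than the blue one for intergenic peaks (22.9% against 30.4%) and higher for the other 5 classes.

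The distance to the nearest gene start differed in the same direction. The centre of the strongest peak lay a median of 3871 bp from a gene start in CpG replicate 2 for missing regions, against 6609 bp for regions called in all 4. Within 1 kb of a start lay 34.1% of missing regions and 27.7% of the others, and beyond 50 kb lay 5.19% and 7.78%. Read the other way round, 60.1% of regions with a mean distance under 500 bp were missing, 49.8% of those 10 to 50 kb away and 44.7% of those beyond 50 kb.

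Strength moved with class, so the shares were also set beside the rate that each class's strength groups would give. Promoter regions had a low median of the lowest percentile, at 25.1, and 58.5% of them were missing, against 58.6% from strength. Intergenic regions were stronger, with a median of 45.5, and 47.6% were missing against 52.2% from strength. Exon regions were missing at 63.0% against 58.5%, and intron regions at 56.0% against 53.7%. Observed minus given by strength, the difference was -0.0993 percentage points for promoter regions and -4.59 for intergenic regions. Strength here is read from the same peak calls that chose the regions, and the part of strength in the class differences was not tested.

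The missing share ran between 50.2% on chromosome 1 (95% exact binomial interval 46.7% to 53.8%) and 59.2% on chromosome 15 (54.7% to 63.6%) among the autosomes. The X chromosome had 126 missing of 193 regions (65.3%, interval 58.1% to 72.0%), where its strength groups gave 53.6%. The Y chromosome had 4 regions, of which 3 were missing. The X was chosen for mention after the shares were seen.

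Few of the missing regions stood beside a CpG replicate 1 peak. The nearest CpG replicate 1 peak was within 1 kb for 436 of 6769 regions (6.44%, interval 5.87% to 7.05%) and within 5 kb for 24.6%, with a median distance of 17998 bp. For regions missing only from CpG replicate 2 the share within 1 kb of that library's peaks was 12.3%, for those missing only from control replicate 1 it was 10.5%, and for those missing only from control replicate 2 it was 16.3%. CpG replicate 1 also had the fewest peaks to be near to. Most of the missing regions thus lay far from any peak of that library.

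At the edge of the rule, the 5 missing regions closest to a CpG replicate 1 peak were 3, 12, 38, 50 and 58 bp from it (nearest genes Gm20717, Egfros, Muc13, Gm11747 and Gm14335). The Muc13 region, 450 bp long, had folds of 9.91 in CpG replicate 2, 8.17 in control replicate 1 and 10.6 in control replicate 2. Just outside the rule, the 5 regions called in all 4 with the least overlap by CpG replicate 1 shared 6, 8, 11, 21 and 22 bp with it (Tlnrd1, Cd84, Rgs2, Nr4a2 and Mir6899). The Cd84 promoter, of a cell-surface receptor of the SLAM family, had folds of 6.91 in CpG replicate 1, 5.83 in CpG replicate 2, 4.57 in control replicate 1 and 7.21 in control replicate 2.

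The authors also deposited 1 list for each whole condition. Their list for CpG, with 15249 peaks, overlapped 3718 missing regions (54.9%, interval 53.7% to 56.1%) and 98.6% of the regions called in all 4. Their control list, with 28465 peaks, overlapped 99.2% of missing regions and 99.6% of the others. Missing regions inside the CpG list had a median percentile of 66.9 in CpG replicate 2, against 28.4 for those outside it, and a median length of 903 bp against 649 bp. The regions listed for the CpG condition were thus the stronger ones in the other CpG library. The listed share depended on the libraries and the threshold, at 32.3% without CpG replicate 2, 48.1% without control replicate 1 and 83.0% with −log10 p of at least 10 in all 4 libraries. The lists draw on the same libraries, so this is no independent evidence.

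At the level of genes, 2897 genes had a Promoter-class peak within 1 region in each of CpG replicate 2, control replicate 1 and control replicate 2. For 1632 of them (56.3%) no such region had a CpG replicate 1 peak, and for 1265 one did, of which 44 had a missing region as well. Of the 1632 genes, 25 had a CpG replicate 1 promoter peak elsewhere, 353 were nearest to some CpG replicate 1 peak, and 1276 (78.2%) had neither. Protein-coding genes made up 86.9% of the missing-only genes matched to RefSeq and 86.4% of the others. The 2 sets of genes thus did not differ in gene type by more than 1 percentage point.

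Across 300-base RefSeq promoters, 1001 missing-only genes were set beside 820 genes called in all 4 and 27025 promoters in RefSeq, with 1 entry per symbol. Median G and C content was 63.3% in missing-only promoters, 60.3% in those called in all 4 and 52.7% in all promoters, and the median number of CG dinucleotides was 24, 21 and 7. The GC box GGGCGG, bound by Sp1-type factors, was in 72.1% of missing-only promoters, 65.5% of those called in all 4 and 35.9% of all. Promoters of the missing set were thus the richest of the 3 groups in these letters.

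The paired GAAA of interferon response elements, GAAANNGAAA, was in 2.1% of missing-only promoters (21 of 1001), 3.41% of those called in all 4 (28 of 820) and 3.49% of all promoters. GAGGAA, the core bound by PU.1 and other ETS factors, was in 25.8%, 29.0% and 28.3% of the same 3 groups in that order. The AP-1 motif TGANTCA was in 5.69%, 5.37% and 7.93%. None of these 3 motifs was more frequent in the promoters of the missing set than in all promoters. The NF-kB motif GGGNNNNTCC was in 24.1% of missing-only promoters, 24.5% of those called in all 4 and 19% of all, and the E-box CACGTG in 11.3%, 10.7% and 7.24%. CCAAT was in 43.0% of missing-only promoters against 50.4% of those called in all 4 and 37.9% of all, and TATAAA in 6.89% against 9.63% and 14.2%. Both strands were searched, motifs may overlap each other, and a match is a run of letters, not a bound site. Peaks away from promoters could not be searched for motifs, as no genome of the files' build was used here.

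Genes of 22 lists drawn up for macrophages and their signalling were looked up among the promoter genes, and a gene was counted as missing when none of its promoter regions had a CpG replicate 1 peak. In all, 36 of 110 listed genes with a promoter region in the 3 libraries were missing (32.7%), against 56.3% of all such genes and 55.5% of those with a name in the files. The lists held 0 to 16 such genes each, and the difference was not tested. The lists above 56.3% were the lysosome list, with 7 of 9 genes missing, and the IRF list, with 3 of 4.

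**Figure D4:**
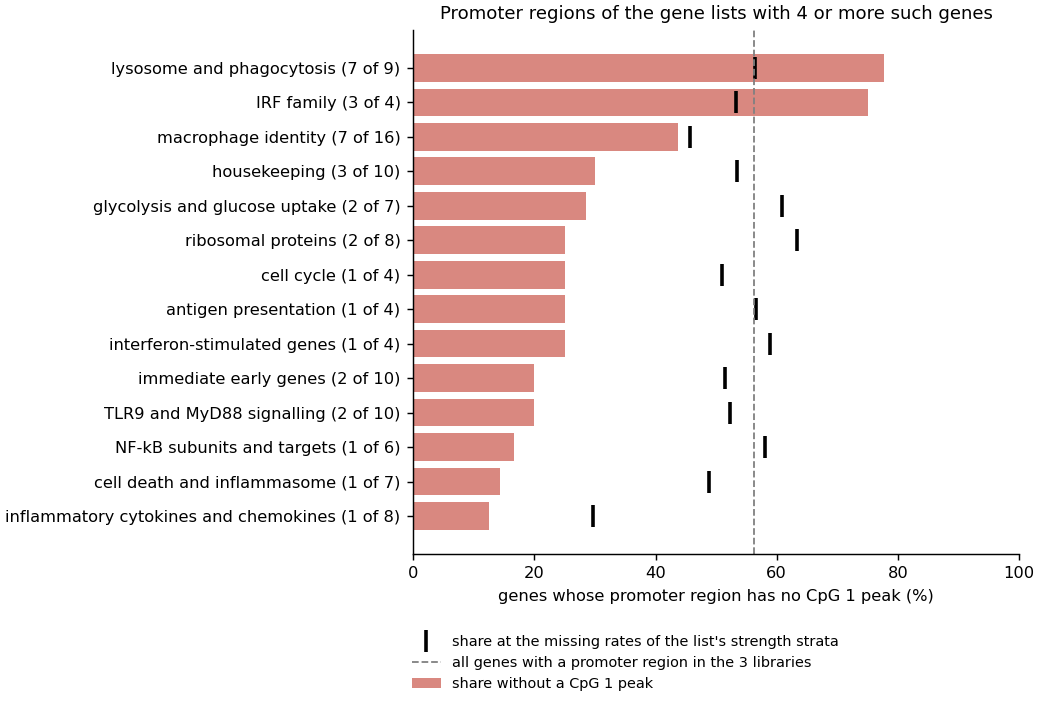
Share of listed genes with a promoter region in CpG replicate 2 and both controls whose region had no CpG replicate 1 peak, for the lists with at least 4 such genes (bars), the share that the strength of their regions would give (black ticks) and the share of all promoter genes (dashed line, 56.3%). The lysosome and IRF lists lie right of the line, and the other 12 lie left of it.

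In the IRF list, the promoter regions of Irf1, Irf5 and Irf2bp1 were missing, and that of Irf2bp2 was called in all 4. Irf2bp1 and Irf2bp2 encode IRF2-binding proteins, which are not interferon regulatory factors, so the list's share is not one of the family alone. The Irf1 region at chr11:53660403-53661593, at the gene of the founding interferon regulatory factor, had folds of 7.99 in CpG replicate 2, 7.91 in control replicate 1 and 5.86 in control replicate 2. The Irf5 promoter itself, at chr6:29525820-29526536, had folds of 4.52 in CpG replicate 2, 3.65 in control replicate 1 and 11.9 in control replicate 2. It was high in control replicate 2, at the 89.9th percentile. In both other libraries that called it, it was low, at the 16.6th in CpG replicate 2 and the 5.28th in control replicate 1. Its nearest CpG replicate 1 peak was 1531 bp away. Irf2bp1, which encodes a corepressor partner of IRF2, had folds of 4.48 in CpG replicate 2, 3.28 in control replicate 1 and 5.94 in control replicate 2.

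The lysosome and phagocytosis list had 7 of its 9 promoter genes in the missing set, among them Atp6v1a and Atp6v0c of the proton pump, the Fc receptor gene Fcgr4, the hydrolase genes Hexa and Ctsz, and Npc1 of cholesterol export. Lipa and Rab5a were called in all 4. The strength of the 9 regions would have given 56.3% missing, against the 77.8% seen. Atp6v1a was strong in every library that called it, with ranks between the 82.2nd and 85.1st percentile. Its folds were 9.29 in CpG replicate 2, 8.49 in control replicate 1 and 9.83 in control replicate 2. Atp6v0c stood at folds of 7.84 in CpG replicate 2, 9.05 in control replicate 1 and 9.42 in control replicate 2. Fcgr4 had a fold of 5.89 in CpG replicate 2, against 8.22 in control replicate 1 and 8.09 in control replicate 2. Hexa, Npc1 and Ctsz ranked higher in CpG replicate 2 than in either control, with Npc1 at the 86.2nd percentile in CpG replicate 2 against the 25.4th in control replicate 1 and the 18.4th in control replicate 2.

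Of 16 macrophage identity genes with a promoter region, 7 were missing (43.8%, where strength gave 45.7%), among them Cd14, Ptprc, Fcer1g, Mertk, Tyrobp and Spi1. The 9 called in all 4 included Csf1r, Adgre1, Cd68, C1qa and Cebpa. Cd14, the coreceptor for bacterial lipopolysaccharide, had a fold of 6.59 in CpG replicate 2, against 9.28 in control replicate 1 and 10.7 in control replicate 2, and a CpG replicate 1 peak lay 429 bp away. Fcer1g, the signalling adaptor of Fc receptors, had 5.74 in CpG replicate 2, against 10.7 in control replicate 1 and 17.7 in control replicate 2. Mertk, the receptor for apoptotic cells, had 5.69 in CpG replicate 2, against 11.6 in control replicate 1 and 6.99 in control replicate 2. All 3 of these receptor genes ranked lowest in CpG replicate 2. Ptprc, which encodes CD45, had 5.85 in CpG replicate 2, against 7.54 in control replicate 1 and 8.94 in control replicate 2. It too ranked lowest there, and the ranks of Cd14, Fcer1g, Mertk and Ptprc in CpG replicate 2 were the 58.0th, 41.2nd, 40.7th and 45.8th percentile. Spi1 was near the floor of all 3 lists, at the 10.5th, 5.28th and 11.7th percentile for CpG replicate 2, control replicate 1 and control replicate 2.

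In the signalling and response lists few promoters were missing. In TLR9 and MyD88 signalling 2 of 10 genes were missing, Ticam1, the adaptor of TLR3 and TLR4, and Traf3, while Tlr9, Myd88, Unc93b1 and 5 others were called in all 4. Of the inflammatory cytokines and chemokines 1 of 8 was missing, Ccl6, with folds of 7.42 in CpG replicate 2, 9.71 in control replicate 1 and 9.19 in control replicate 2. Tnf, Ccl2, Ccl3, Ccl7, Ccl12, Cxcl2 and Ccrl2 were called in all 4, and the median lowest percentile of these 8 genes was 97.2. By this median the cytokine promoters ranked high, though not every one did, as the lowest percentile of Ccl6 was 68.6. At the rates of their strength, 29.7% of them would have been missing. The cell death list had 1 of 7 missing (Fadd, the adaptor of death receptors), the NF-kB list 1 of 6 (Ptgs2, which encodes cyclooxygenase 2), and the immediate early genes 2 of 10 (Dusp2 and Fosb). Among interferon-stimulated genes 1 of 4 was missing, Dhx58, a RIG-I-like receptor, with a fold of 4.36 in CpG replicate 2, against 3.62 in control replicate 1 and 8.68 in control replicate 2. At the rates of their strength, 52.3% of the TLR9 and MyD88 genes and 48.9% of the cell death genes would have been missing. The same rates gave 58.0% for the NF-kB list, 51.4% for immediate early genes and 58.9% for interferon-stimulated genes. All of these exceed the shares seen, in lists of 4 to 10 genes, and the differences were not tested.

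The remaining lists held 1 of 4 antigen presentation genes (Tap2), 2 of 7 glycolysis genes (Pkm and Slc16a1), 1 of 2 genes of oxidative phosphorylation (Ndufb5), 1 of 2 of alternative activation (Stat6), 1 of 4 of the cell cycle (Ccne1), 2 of 8 ribosomal protein genes (among them Rps27a) and 3 of 10 housekeeping genes (Eef2, Hsp90ab1 and Psmb2). Counts of this size carry a wide counting error, and no list was tested. Markers of other cell types had few promoter regions in the 3 libraries, and so did some other lists. Such a region was held by 2 of 20 listed genes of oxidative phosphorylation and 4 of 44 interferon-stimulated genes, against 16 of 34 of macrophage identity. Dendritic cells (10 listed), erythroid cells with megakaryocytes (12) and stromal with endothelial cells (13) had 1 such gene each. These were Xcr1, Pf4 and Pecam1, all called in all 4, so 0 were missing. B cells (10 listed), T and NK cells (14), and neutrophils (17) had 0 such genes. By nearest gene, some missing regions did lie at markers, namely Tcf4, Cd3d, Klrb1c, Csf3r, Mmp9, Pf4, Pecam1 and Vwf. Of the 36 missing listed genes, 19 were inside the authors' CpG condition list and 4 had a CpG replicate 1 peak within 1 kb. Over all missing regions these shares were 54.9% and 6.44%, so the listed count in the CpG list is near that of the whole set.

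The strongest missing regions, ranked by their lowest percentile over the 3 libraries, were at the top of each list that called them. The first was an intergenic region of 6366 bp at chr11:68926613-68932978, with Aurkb, which encodes a mitotic kinase, as the nearest gene. Its folds were 26.0 in CpG replicate 2, 17.3 in control replicate 1 and 45.9 in control replicate 2, and the nearest CpG replicate 1 peak was 20666 bp away. The second was the promoter of Ifi204, an interferon-inducible DNA sensor of the p200 family, at chr1:173594450-173594723. It was only 274 bp long, with folds of 25.3 in CpG replicate 2, 18.1 in control replicate 1 and 37.7 in control replicate 2. All 10 of the strongest were inside the authors' CpG condition list, against 54.9% of all missing regions. A CpG replicate 1 peak lay within 1 kb of 1 of them, against 6.44% of all missing regions.

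The other 8 of the first 10 were away from promoters. Of these, 6 were in introns by class, with Gm45670, Gm40304, Gm49910, Gm12543, Ezr and Rbfa as nearest genes. The Gm45670 region, of 1695 bp at chr7:133345662-133347356, had folds of 31.0 in CpG replicate 2, 16.1 in control replicate 1 and 52.4 in control replicate 2. The nearest CpG replicate 1 peak was 943657 bp away. The Ezr region, in the gene of the membrane-cytoskeleton linker ezrin, had folds of 23.0 in CpG replicate 2, 13.5 in control replicate 1 and 36.6 in control replicate 2. The intergenic regions were those near Arid5b and Zfp395, which encode DNA-binding proteins. Next among the intergenic regions came one near Irf2bpl, with folds of 17.4 in CpG replicate 2, 21.1 in control replicate 1 and 47.3 in control replicate 2, and one near Gm16170.

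**Figure D5:**
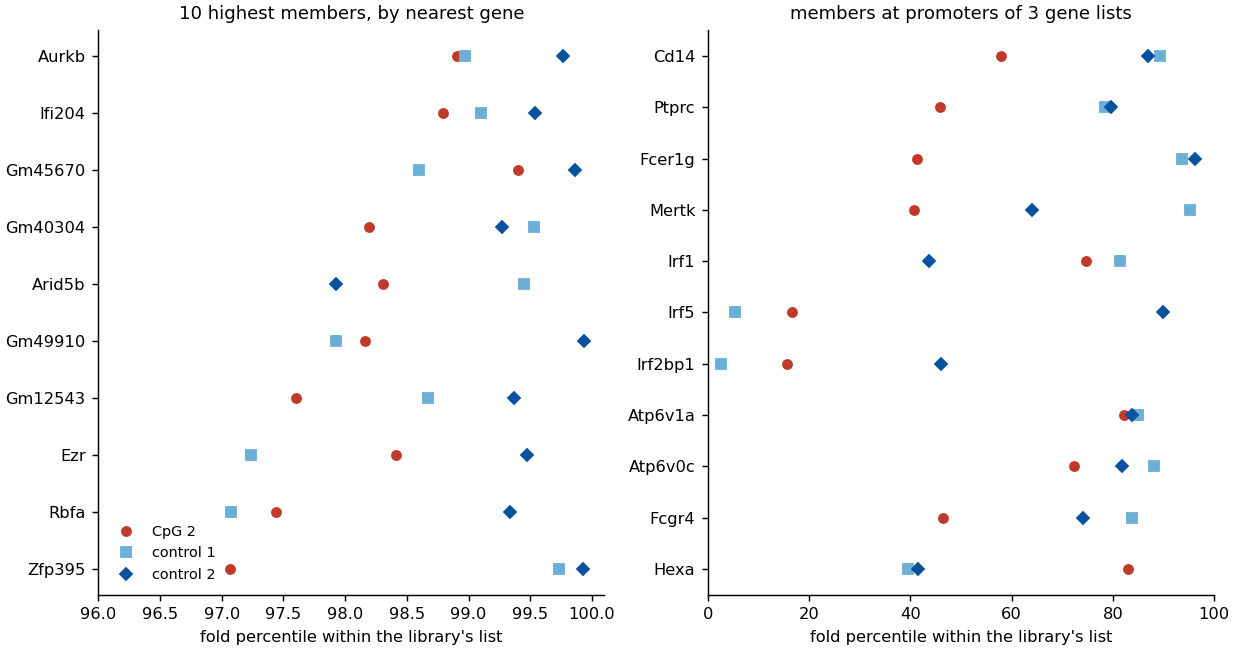
Fold percentile within each library's own list for the 10 strongest missing regions (left, named by the nearest gene, axis from the 96th percentile) and for missing regions at promoters of the macrophage identity, IRF and lysosome lists (right, up to 4 genes per list, taken by the percentile in the library where each was lowest); red circles are CpG replicate 2, light squares control replicate 1, dark diamonds control replicate 2. The left panel's points all exceed the 97th percentile, while on the right single genes span much of the scale, such as Irf5 between 5.28 and 89.9.

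After Ifi204, the strongest promoter regions included that of a U3 small nucleolar RNA gene (ENSMUSG00000119648), whose product acts in ribosomal RNA processing, and that of Vav3, a signalling protein of leukocytes. Vav3 had folds of 16.4 in CpG replicate 2, 13.0 in control replicate 1 and 22.6 in control replicate 2, and its nearest CpG replicate 1 peak was 66317 bp away. A region of 4424 bp at the histone gene H4c8 (promoter of Gm11335) and one at H4c18 (promoter of H2bc24) followed, with Plin3, of lipid droplets, and Gm19261 between them. The Plin3 peak was centred 2008 bp inside the gene in CpG replicate 2, although its class was Promoter. The list went on with Slc7a5, an amino acid transporter gene (its region in the promoter of ENSMUSG00000074052), Atf6, an endoplasmic reticulum stress factor that shares its region with Gm9929, and Pigl, which shares its region with the corepressor gene Ncor1. Copies of U3, Y RNA, 7SK and histone genes are nearly alike in sequence, and the sources used here do not say how reads that fit several copies were placed, so these regions are uncertain.

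The longest missing region spanned 15031 bp at chr1:190904088-190919118, in introns, with a 7SK RNA gene as the nearest gene in CpG replicate 2 and control replicate 2 and Fam71a in control replicate 1. It rested on folds of 11.9 in CpG replicate 2, 21.3 in control replicate 1 and 22.3 in control replicate 2, and a CpG replicate 1 peak lay 5206 bp from it. The next were the Aurkb region, one of 6283 bp downstream of Mcl1, which encodes a survival factor of the Bcl-2 family, one of 5953 bp at Gdf15, a stress-induced cytokine, and one of 5276 bp near ENSMUSG00002076626. These long missing regions thus also ranked above the 80th percentile in all 3 libraries. The longest was a chain of 8 peaks in CpG replicate 2, 2 in control replicate 1 and 10 in control replicate 2. Its strongest peaks were 1201, 2646 and 2293 bp long in that order. Since the strongest peak gives the rank, a region that joins several peaks has more chances of a high one.

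Missing regions were spread over many genes. In 6516 of them the strongest peak had the same nearest gene in all 3 libraries, which gave 4980 genes, of which 3899 had 1 region and 296 had 3 or more. Regions called in all 4 were also nearest to 1434 of these genes. The Y RNA gene Rny3 had the most, with 12 missing and 8 called in all 4 over 44.8 kb. Atg7, the activating enzyme of autophagy, had 8 missing and 0 called in all 4, and 2 peaks of CpG replicate 1 had it as nearest gene, against 26 in CpG replicate 2, 43 in control replicate 1 and 32 in control replicate 2. B4galt5, of glycolipid synthesis, had 8 missing and 4 called in all 4, while Gm19510 and Gm50210 had 8 and 3 each. Cybb, the catalytic subunit of the phagocyte NADPH oxidase on the X chromosome, and Eya3 had 6 missing and 0 called in all 4, and were picked after their counts were seen. At Cybb the missing regions had folds of 3.81 to 14.8 in CpG replicate 2, 5.32 to 9.05 in control replicate 1 and 5.46 to 14.4 in control replicate 2.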

How the data were processed

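Anti-IRF5 CUT&Tag peak lists of 4 libraries and 2 lists of whole conditions were used, as deposited by the authors. The submitters' processing notes name MACS2 2.1.0, BWA 0.7.12, ChIPseeker (with no version) and fastp 0.20.0. No genome build was used for the peaks (not given in the sources used here). The pileup signal at a summit, the fold enrichment (a ratio to local background) and the −log10 p-value of each peak are values deposited by the authors, and 2 columns with damaged headers were identified by their position and range. Overflow lines of long annotation cells were left out (281, 682, 875 and 1017 for CpG 1, CpG 2, control 1 and control 2), and peaks on 21 chromosomes were kept. Depth is unknown, and 2 libraries per condition limit the precision. The lowest −log10 p of a list was 5.00 to 5.02.

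With Python 3.11.15, pandas 2.3.3, numpy 2.4.6 and scipy 1.17.1, peaks overlapping by at least 1 bp were merged, and the peak of highest fold stood for a region in each library. Its percentile of fold within its list gave its strength. Exact 95% binomial intervals cover counting error only. The merging was tested on simulated peaks. No test between conditions was run. A promoter region was credited to a gene when the authors' Promoter class named it in all 3 libraries. Gene symbols come from the lists, which name only a peak's nearest gene. Only 3.10% of 16268 symbols matched to RefSeq GRCm38.p6 started within 1 kb of the same position, so its coordinates were used for its own promoter windows alone.

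The members and the gene lists were chosen with earlier results of these data known. Regions were named by rank of their lowest percentile over the 3 libraries: the 10 highest, the 10 highest at promoters, the 5 highest in intergenic and in intronic sequence, the 5 longest, the 5 genes nearest to most members, 5 on each side of the rule's edge, and up to 4 genes per list. Further genes of the lists, the groups by strength, length, distance and chromosome, and the motif searches were added after the first comparison of the sets had been seen. Alternatives covered merging, the p-value threshold, list length and leaving out a library. Some genes are not reported here.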

Additional observations from a re-analysis of the deposited data

How the results depend on the processing

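Between 7784 and 11717 regions were missing when 1 of the 3 libraries was left out, because a requirement is dropped, against 6769 in all. The length ratio was then 0.637 to 0.692 (0.755 with all libraries), the percentile difference -25.8 to -20.1, the promoter difference 1.62 to 3.79 percentage points (4.04 with all), the share within 1 kb of a CpG replicate 1 peak 7.08% to 8.54%, and the overlap with the CpG condition list 32.3% to 51.6%. Leaving out control replicate 1 gave 10386 missing regions and a promoter difference of 1.62, and leaving out CpG replicate 2 gave 11717 and 2.22. The rule has no meaning without CpG replicate 1. No paired analysis was possible because no result comes from a test.

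With each list cut to the 13553 peaks of the shortest, 2359 regions were missing (39.9% of those in the other 3 lists), the length ratio was 0.848, the promoter difference 6.58 and the overlap with the CpG list 82.2%. With −log10 p of at least 10 in all 4 libraries, 4619 regions were missing (62.6%), the promoter difference was 5.02, the share within 1 kb 2.79% and the overlap 83.0%. With that threshold in the 3 calling libraries alone, 3254 regions were missing (44.1%), with a promoter difference of 5.84 and an overlap of 76.3%. Merging within 200 bp gave a share within 1 kb of 4.43%, and merging within 1 kb gave 0 by construction. A limit of 5 kb gave 24.6%. Requiring overlap by at least 50% of the shorter peak gave an overlap with the CpG list of 56.5%, and classing a region by any of its peaks gave a promoter difference of 3.71. No difference changed direction under any of these settings. Apart from the number of regions, 26 of 48 values stayed within the SD over libraries or the counting interval of the main value. Where values moved, the cause was not tested beyond the construction named. Unknown depth limits what a missing call can show.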
